A study of Mus musculus with 6 samples.

Results

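The serum amyloid A genes Saa1, Saa2 and Saa4 were followed in mouse liver after GW4064, an agonist of the bile acid receptor FXR, through every probe set that the authors' comparison table paired with one of these symbols. There were 5 such probe sets for the 3 genes, out of 22626 tested on each array, and each was read on all 6 arrays. The GW4064 group held 3 adult wild type C57BL/6J mice. Each was given GW4064 3 times at 100 mg/kg, at 8 am and 6 pm and once more the next morning at 8 am. The vehicle group held 3 mice of the same strain and genotype given vehicle on the same schedule. Livers of both groups were collected 2 hours past the final dose, and by the study's methods all mice had been fasted overnight beginning at the second dose. Each array held the RNA of 1 mouse, and the values are normalized log2 expression levels of whole liver, in which fewer cells of a type and less RNA per cell cannot be told apart. The authors filtered the table that supplied the gene names on these same 6 arrays. Their limits were at least 1.5-fold and an unpaired test p of at most 0.05. The deposited values do not meet these limits for every named probe set, that of Ung being 1.46-fold higher. The differences below still describe probe sets already chosen for differing. None of 8 hepatocyte marker genes was among the 87 genes named there, and the tissue was therefore not checked against its markers.

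Serum amyloid A proteins are small apolipoproteins that hepatocytes release into plasma, where they ride on high density lipoprotein. In the mouse, Saa1 and Saa2 are the classical acute phase members: interleukin-1, interleukin-6 and tumour necrosis factor raise their transcription steeply during inflammation, and a fragment of the protein is the deposit in AA amyloidosis. Saa4 encodes a constitutive member of the family that responds much less to inflammation. C/EBP, NF-κB and STAT3 are known regulators of the acute phase promoters in hepatocytes.

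The genes lie in a cluster on chromosome 7, placed by the authors' table in band B4, where the RefSeq gene order is Saal1, Saa3, Gm31882, Saa4, the pseudogene Saa-ps, Saa1, Saa2 and Hps5. RefSeq lists Saa2 among the synonyms of Saa1 and Saa1 among those of Saa2, so the 2 names have been exchanged in use, and the symbols below follow the Entrez identifiers 20208 (Saa1), 20209 (Saa2) and 20211 (Saa4) of the authors' table. No probe set was paired with Saa3, which was not analysed here. The start site windows of the 3 genes are shown because all 3 genes had higher values together, so that the same letters can be looked for in each. They lie mostly before the start and say nothing of what the probes can tell apart. The windows run from 250 bases before to 50 bases after the start site in RefSeq, build GRCm38.p6, written 5′ to 3′ in the direction of transcription: Saa1 at chr7:46742931-46743230 on the minus strand, Saa2 at chr7:46751583-46751882 on the plus strand and Saa4 at chr7:46732554-46732853 on the minus strand. Capitals mark matches to TTGCNNAA, the C/EBP-type motif, and to AGGTCA, the nuclear receptor half-site that FXR binds, on either strand. On the minus strand they are seen as the reverse complement, which is TGACCT for the half-site.
Saa1: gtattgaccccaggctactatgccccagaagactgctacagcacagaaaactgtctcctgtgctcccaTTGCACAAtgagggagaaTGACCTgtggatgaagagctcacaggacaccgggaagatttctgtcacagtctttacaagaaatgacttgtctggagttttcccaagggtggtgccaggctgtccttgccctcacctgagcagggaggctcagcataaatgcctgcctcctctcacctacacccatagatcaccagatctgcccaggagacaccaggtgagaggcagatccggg
Saa2: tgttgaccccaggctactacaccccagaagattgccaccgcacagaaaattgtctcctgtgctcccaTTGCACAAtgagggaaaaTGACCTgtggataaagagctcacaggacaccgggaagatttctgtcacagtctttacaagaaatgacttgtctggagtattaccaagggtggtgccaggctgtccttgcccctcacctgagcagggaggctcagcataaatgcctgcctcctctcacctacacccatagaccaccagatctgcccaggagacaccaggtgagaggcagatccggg
Saa4: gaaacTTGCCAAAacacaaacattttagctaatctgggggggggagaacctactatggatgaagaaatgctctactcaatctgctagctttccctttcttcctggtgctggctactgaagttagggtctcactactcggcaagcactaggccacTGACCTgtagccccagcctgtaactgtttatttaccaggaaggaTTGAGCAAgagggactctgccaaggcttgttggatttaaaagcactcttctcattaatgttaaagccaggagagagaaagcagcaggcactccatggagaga

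The Saa1 and Saa2 windows were identical at 287 of 301 aligned positions (95.3%), with 12 mismatches and 2 gaps. The Saa4 window matched that of Saa1 at 46.8% and that of Saa2 at 43.9% of aligned positions. A C/EBP-type match stood at -182 to -175 from the start site in Saa1 and at -183 to -176 in Saa2, and Saa4 held one at -245 to -238 and a second at -52 to -45. All 3 windows therefore held this motif, which 2906 of 27025 RefSeq windows of the same length (10.8%) held. The half-site lay on the opposite strand at -164 to -159 in Saa1, at -165 to -160 in Saa2 and at -96 to -91 in Saa4, and occurred in 16.0% of all windows. Its inverted repeat with a spacer of 1 base, the arrangement FXR prefers, was in none of the 3 and in 0.0111% of all windows. The STAT-type motif TTCNNNGAA was also in none of the 3, against 8.47% of all windows. No NF-κB motif was searched. Both strands were searched for each motif and no matches overlapped. Since the Saa1 and Saa2 windows are nearly identical, their matches are not separate finds, and nothing is read from the shares of all windows. These are matches of letters and no binding was measured.

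Saa1 was measured by a pair of probe sets. On 1419075_s_at its log2 level was 14.56, 14.54 and 12.20 in the GW4064 mice, against 11.29, 10.69 and 10.61 in the vehicle mice. The first 2 GW4064 mice lay almost together and far above the third, which was still above every vehicle mouse by 0.913. Group means were 13.77 ± 1.36 in GW4064 livers and 10.86 ± 0.373 in vehicle livers (SD, n = 3 each), a log2 difference of 2.91 (SE 0.574) or 7.50-fold. The suffix _s_at marks a set whose probes all match several transcripts, and on the array as a whole 6.49% of the tested probe sets carry it. With this suffix, the value may hold signal from another Saa transcript, and the share was not measured.

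The second Saa1 probe set, 1450788_at, carries the suffix given to sets taken as matching a single transcript. It read 14.44, 14.40 and 12.55 in GW4064 livers, against 11.74, 11.11 and 11.00 in vehicle livers. The order of the mice was the same as on the first Saa1 probe set, and the groups again did not overlap, the gap being 0.806. Means were 13.80 ± 1.08 under GW4064 and 11.28 ± 0.403 under vehicle (SD, n = 3 each), a log2 difference of 2.51 (SE 0.472) or 5.71-fold. The difference was thus smaller by 0.393 than on the _s_at set, and most of that came from GW4064 mice 1 and 2, where the shifts above the vehicle mean differed by 0.536 and 0.569, against 0.0756 in GW4064 mouse 3.

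Saa2 was read by the single probe set 1449326_x_at, whose suffix says that some of its probes may cross-hybridize, as for 6.68% of the tested probe sets. Its log2 level was 14.64, 14.52 and 10.26 in GW4064 livers, against 9.18, 8.49 and 8.68 in vehicle livers. GW4064 mice 1 and 2 differed by only 0.125, whereas GW4064 mouse 3 lay 4.38 below mouse 1 and 1.08 above the highest vehicle mouse. The means were 13.14 ± 2.49 under GW4064 and 8.78 ± 0.359 under vehicle (SD, n = 3 each), a log2 difference of 4.36 (SE 1.02) or 20.5-fold. Ranked from the largest increase down, this probe set was number 2 of the 22626 tested, and the Saa1 sets were number 6 and number 8. Its SD among GW4064 mice was larger than that of 99.99% of tested probe sets.

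The 20.5-fold mean describes none of the 3 treated mice. Against the vehicle mean, Saa2 signal was 58.0-fold higher in GW4064 mouse 1, 53.2-fold in mouse 2 and 2.79-fold in mouse 3. For Saa1 the folds in the same mice were 12.9, 12.8 and 2.53 on 1419075_s_at and 8.93, 8.66 and 2.41 on 1450788_at. In the third mouse the inducible genes therefore stood at similar folds, while in the first and second Saa2 stood well above Saa1 in fold. In signal it did not: Saa2 read 14.64 and 14.52 there, against 14.56 and 14.54 on 1419075_s_at and 14.44 and 14.40 on 1450788_at. Readings of different probe sets do not order the transcripts by abundance. The vehicle means were 8.78 for Saa2 and 10.86 and 11.28 for Saa1, so the larger fold went with the lower vehicle mean of the _x_at set. The log2 shift of Saa2 exceeded that of 1419075_s_at by 2.16, 2.05 and 0.138 in the GW4064 mice, against -0.0275, -0.118 and 0.145 in the vehicle mice, so that GW4064 mouse 3 fell inside the vehicle range. Set against 1450788_at, the excess was 2.70, 2.62 and 0.214 in the GW4064 mice and -0.0595, -0.12 and 0.18 in the vehicle mice, the third GW4064 value being just above the highest vehicle one. On GW4064 array 1 the Saa2 probe set was within 0.5 and the Saa1 sets within 0.7 log2 units of the brightest probe set, and the part of the upper limit of signal in their near equality there was not tested.

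**Figure D1:**
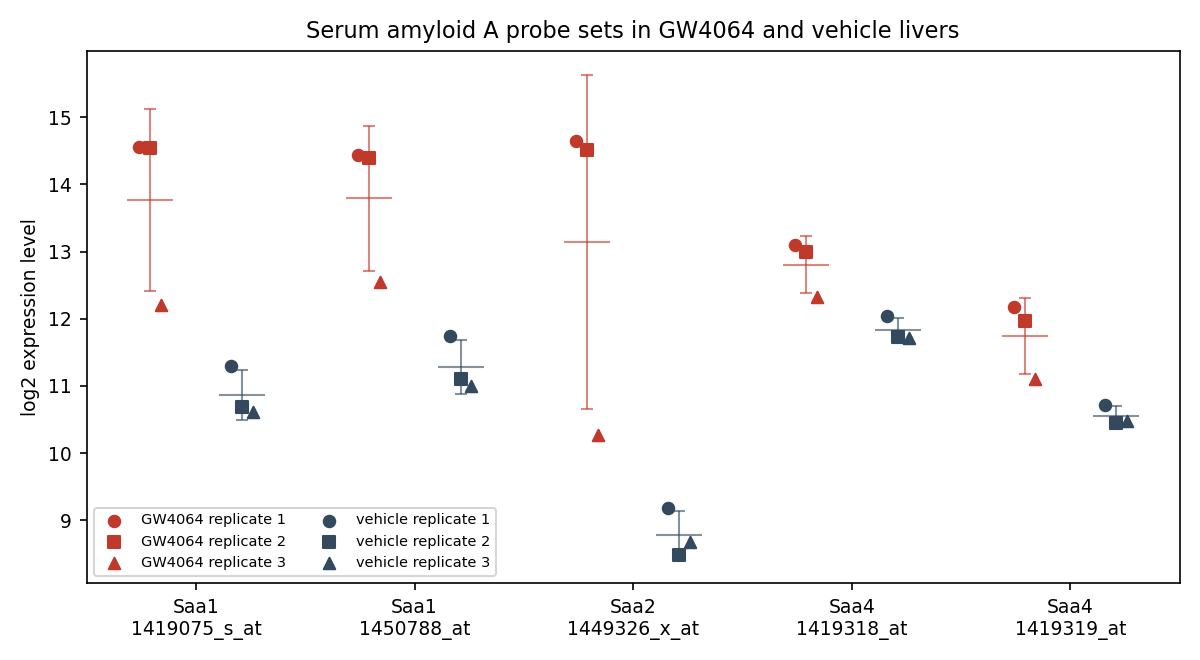
Log2 expression level of the 5 probe sets of Saa1, Saa2 and Saa4 in the 3 GW4064 livers and the 3 vehicle livers, with points for single mice and, for each group, a horizontal line at the mean and whiskers of 1 SD. For each probe set GW4064 mice 1 and 2 lie together at the top, GW4064 mouse 3 lies below them, and all vehicle mice lie lower still.

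Saa4, the constitutive member, had 2 probe sets that both carry the _at suffix of 69.0% of the tested sets. On 1419318_at it read 13.10, 13.00 and 12.32 in GW4064 livers, against 12.03, 11.73 and 11.71 in vehicle livers. The same order of mice appeared on a much smaller scale, with a gap of 0.289 between the lowest GW4064 and the highest vehicle value. Means were 12.81 ± 0.422 with GW4064 and 11.83 ± 0.180 with vehicle (SD, n = 3 each), a log2 difference of 0.98 (SE 0.200) or 1.97-fold.

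On 1419319_at, Saa4 read 12.17, 11.96 and 11.11 in GW4064 livers, against 10.72, 10.45 and 10.47 in vehicle livers. Here too every GW4064 mouse lay above every vehicle mouse, by at least 0.389. Means were 11.75 ± 0.563 with GW4064 and 10.55 ± 0.147 with vehicle (SD, n = 3 each), a log2 difference of 1.20 (SE 0.247) or 2.29-fold. Counted from the largest increase down, the Saa4 sets ranked number 69 and number 48 of those tested. They thus differed from each other by 0.218 in the size of the difference, 1419319_at shifting further in each GW4064 mouse, by 0.349, 0.241 and 0.0626. The log2 difference of Saa2 exceeded those of Saa4 by 3.38 and 3.16. Single mice stood at 2.41-, 2.26- and 1.41-fold of the vehicle mean on 1419318_at and at 3.07-, 2.67- and 1.47-fold on 1419319_at, so that Saa4 was below Saa1 and Saa2 in fold in each treated mouse. Saa4 was read further below the brightest probe set than the other genes, by 2.05 and 2.97 log2 units on GW4064 array 1.

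At baseline, all 5 probe sets were bright. Their vehicle means stood at the 95.45th percentile of tested probe sets for Saa1 on 1419075_s_at, the 96.57th on 1450788_at, the 84.48th for Saa2, and the 97.64th and 94.33rd for Saa4. Since probe sets differ in how they bind, these ranks do not order the transcripts by abundance. Vehicle mice were not all alike either: vehicle mouse 1 was the highest of its group on 5 of 5 probe sets, against 32.7% of all tested probe sets. The 5 sets moved together over the same mice, so they are not separate observations. The SD among vehicle mice was above that of 97.76% and 98.23% of tested probe sets for Saa1 and 97.47% for Saa2, but only 78.52% and 67.21% for Saa4. The inducible genes thus varied more between vehicle mice than most probe sets did, while Saa4 was nearer to the middle.

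The moderated test was fitted across all tested probe sets with limma. Unadjusted p was 0.000919 and 0.000671 for Saa1, 0.00264 for Saa2, and 0.00112 and 0.0012 for Saa4, in the order of the probe sets above. After Benjamini-Hochberg adjustment over 22626 probe sets the limma values were 0.417, 0.417, 0.463, 0.433 and 0.433, so that 0 of 5 passed 0.05, as did 0 probe sets of the whole array (0%), where the smallest adjusted p was 0.284. At an unadjusted p under 0.05, limma called 1985 of all tested probe sets and 5 of 5 members. All 5 were at least 1.5-fold higher with an unadjusted p under 0.05, which 143 probe sets (0.632%) were, and all 5 had every GW4064 mouse above every vehicle mouse, which 1517 (6.70%) had. Because the source of the names required a like difference on these arrays, nothing is read from the 5 of 5. For a single probe set, an exact permutation of 3 mice against 3 cannot give a two-sided p below 0.1, and the number of arrays limits the precision of every value here.

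**Figure D2:**
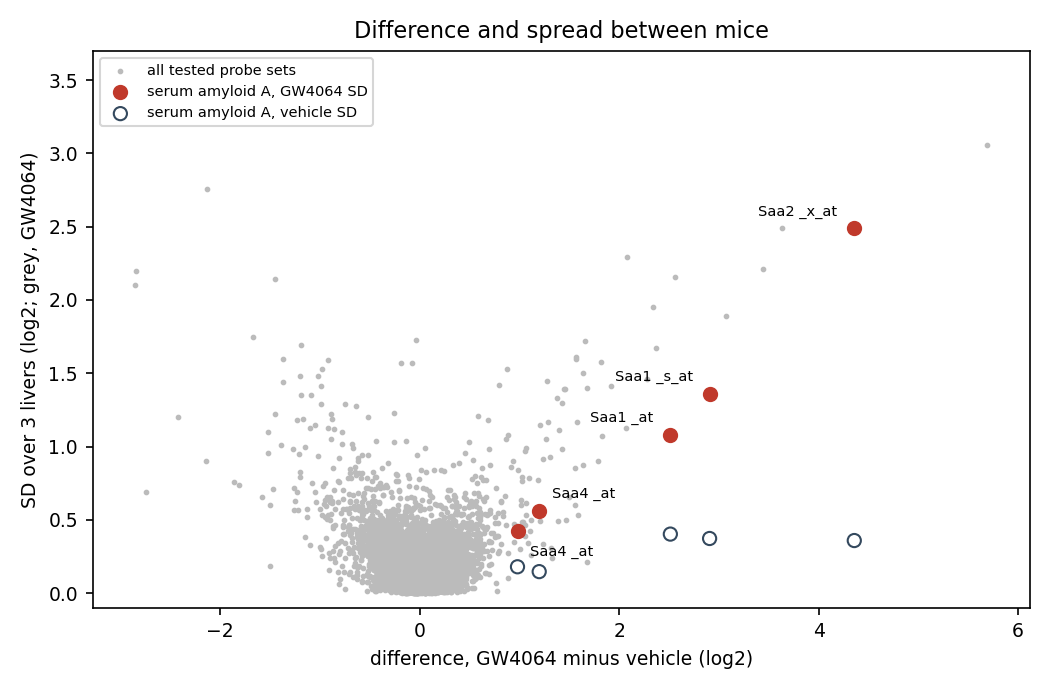
Difference in log2 level between group means (GW4064 minus vehicle, horizontal axis) against the SD among the 3 GW4064 mice (vertical axis) for all tested probe sets in grey and the 5 serum amyloid A probe sets in red, whose SD among the 3 vehicle mice is drawn as open circles. Saa2 lies far out at a difference of 4.36 with an SD of 2.49, and the Saa1 sets lie at 2.91 and 2.51. The Saa4 sets lie nearer to the main body at 0.98 and 1.20, number 69 and number 48 counted from the largest increase down.

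The spread among treated mice had the same shape for every member. GW4064 mouse 1 was the highest and mouse 3 the lowest of the group on 5 of 5 probe sets, and mice 1 and 2 differed by no more than 0.204 log2 units on any of them. The log2 shift of mouse 3 above the vehicle mean was 36.4% and 40.4% of the mean shift of mice 1 and 2 for Saa1, 25.5% for Saa2, and 40.6% and 36.8% for Saa4. In shares of the log2 shift, Saa1 and Saa4 were therefore close in the third mouse, although the shifts themselves differed in size, and Saa2 had the lowest share. The same mouse was low more widely: of the 105 probe sets that were 1.5-fold higher with no overlap, 80 (76.2%) had GW4064 mouse 3 as the lowest of its group, and over the 105 the median share was 42.8%. Among all 1517 probe sets with no overlap in this direction it was the lowest in 49.7%. The SD among GW4064 mice was 3.63 and 2.68 times that among vehicle mice for Saa1, 6.94 times for Saa2, and 2.34 and 3.82 times for Saa4, while over all tested probe sets the median SD was 0.114 in GW4064 and 0.111 in vehicle livers.

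**Figure D3:**
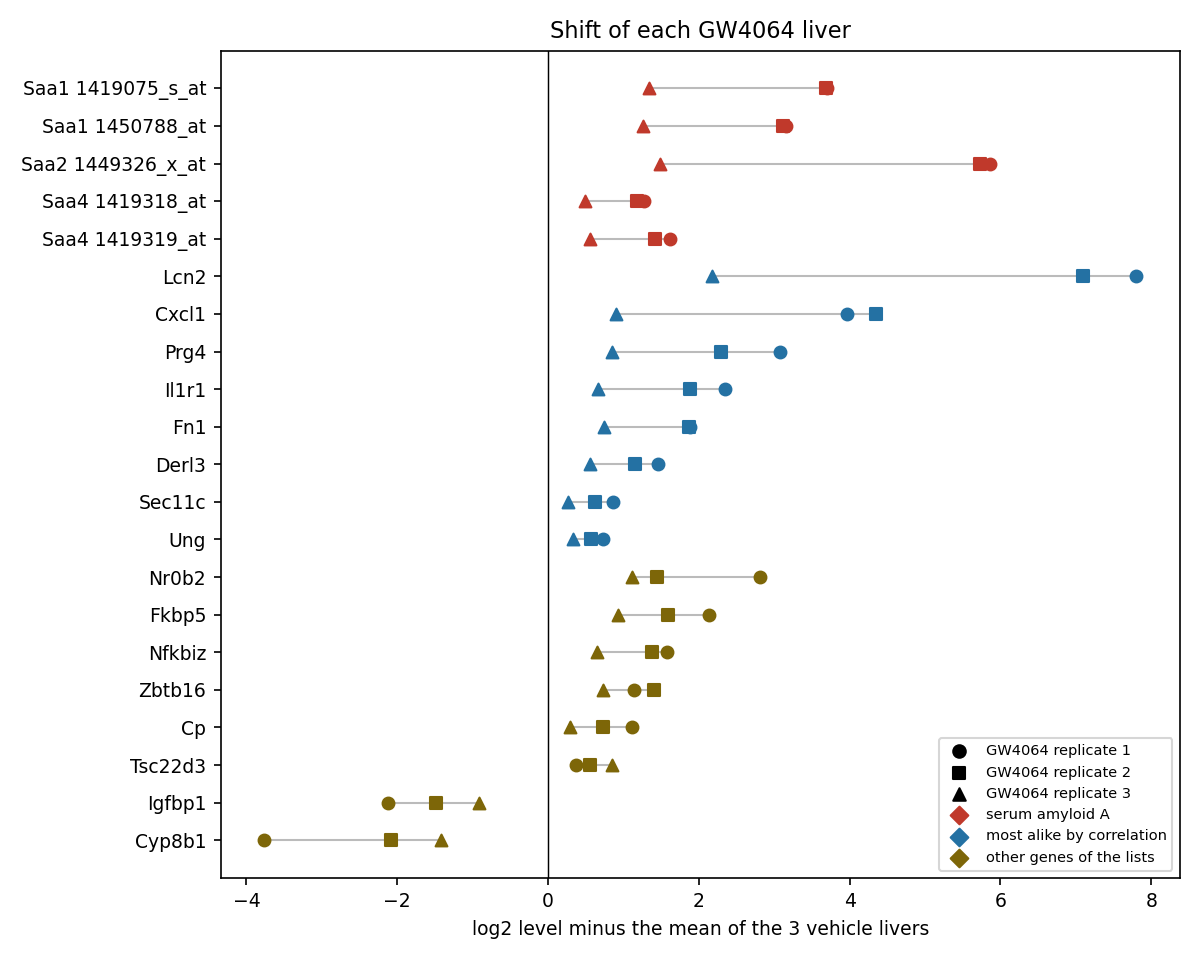
Log2 level minus the mean of the 3 vehicle livers (horizontal axis) in each of the 3 GW4064 mice for the serum amyloid A probe sets and for the genes named beside them. On the serum amyloid A sets GW4064 mouse 3 has 25.5% to 40.6% of the mean shift of GW4064 mice 1 and 2.

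Leaving out GW4064 mouse 3 raised the fold of Saa1 to 12.9 on 1419075_s_at and 8.80 on 1450788_at, and that of Saa2 to 55.6, in a limma fit of the 5 remaining arrays. Adjusted p from limma was then 0.000632, 0.00206 and 6.64e-05 for these sets, and 0.0117 and 0.00386 for the Saa4 sets. With this mouse left out 70 probe sets of the array passed the adjusted threshold, 43 of them higher. Leaving out GW4064 mouse 1 or mouse 2 instead lowered the fold of Saa2 to 12.2 or 12.7, and with any mouse other than GW4064 mouse 3 left out the members' adjusted p from limma lay between 0.629 and 0.794. No ground in the labels sets GW4064 mouse 3 apart from its group, and the values with all 6 mice are the ones reported.

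**Figure D4:**
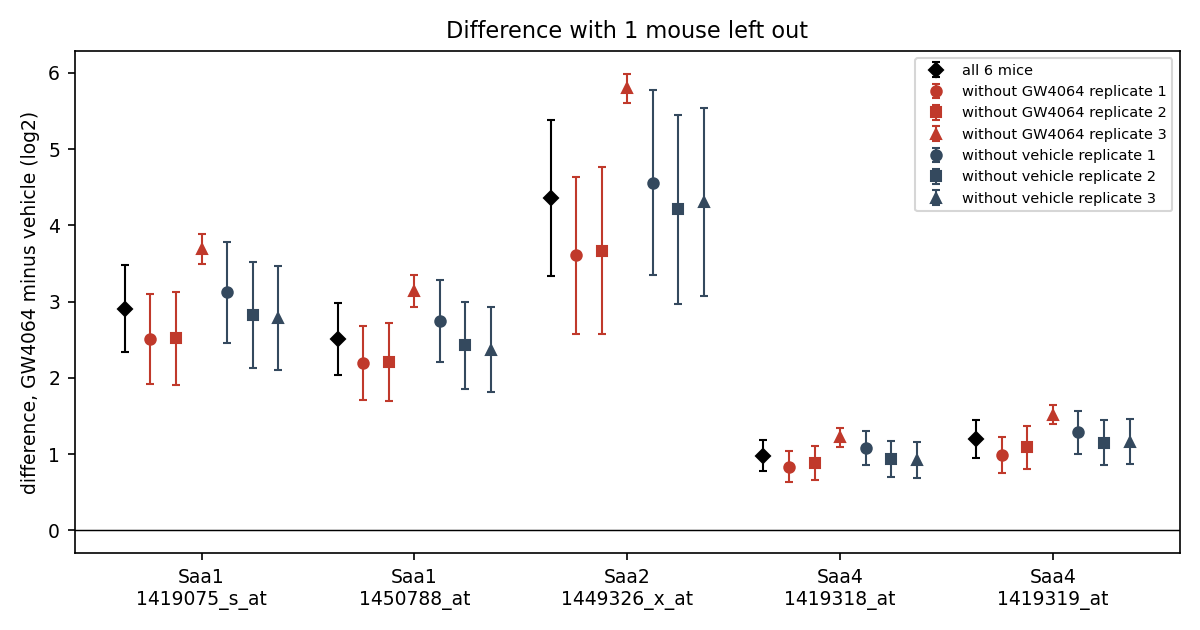
Log2 difference (GW4064 minus vehicle) of each serum amyloid A probe set with all 6 mice and with each mouse left out in turn, with the SE of the limma fit as whiskers. Leaving out GW4064 mouse 3 moves Saa2 to 5.80 and leaving out GW4064 mouse 1 moves it to 3.61, while the Saa4 sets stay between 0.84 and 1.52.

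The 5 probe sets followed one another closely. Over the 6 arrays, Pearson r between members lay between 0.985 and 0.9988 for the 10 pairs, a description over 6 points that share the same livers and the same gap between groups. Such likeness was not limited to the family: 98 to 122 of the other 22621 probe sets (0.433% to 0.539%) reached an r of 0.95 with a given member. Among probe sets paired with 1 gene, the 5 genes most like each member came to 8 in all. Fn1, the gene of fibronectin, and Il1r1, the signalling receptor of interleukin-1, were among the most alike for all 5 members, with r between 0.992 and 0.998 for Fn1 and between 0.986 and 0.995 for Il1r1. Lcn2, an acute phase gene that encodes the iron-sequestering protein lipocalin 2, was among them for 4 members, and Derl3, which acts in degradation of misfolded secretory proteins, for 3. Cxcl1, a neutrophil chemokine, Prg4, the gene of lubricin, Sec11c, a subunit of the signal peptidase, and the uracil-DNA glycosylase gene Ung were each among them for 2. Between 5 and 24 probe sets without a gene name here had a higher r than the fifth gene of a member.

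Since these genes were chosen for their likeness over the same arrays, a low value in GW4064 mouse 3 is part of how they were chosen, and their values are a description. Lcn2 lay 7.80, 7.09 and 2.18 log2 units above the vehicle mean in the GW4064 mice, a difference of 5.69 (SE 1.25), and Cxcl1 lay 3.96, 4.35 and 0.905 above it, a difference of 3.07 (SE 0.773). Fn1 was 1.88, 1.87 and 0.743 above its vehicle mean in the GW4064 mice and Il1r1 was 2.35, 1.89 and 0.659 above its own. The share of mouse 3 was 39.6% for Fn1, 31.0% for Il1r1, 29.3% for Lcn2, 21.8% for Cxcl1, 31.8% for Prg4, 36.0% for Sec11c, 42.3% for Derl3 and 50.3% for Ung. Cxcl1 thus lay below the range of the serum amyloid A sets, and Derl3 and Ung above it. Differences were 2.07 (SE 0.475) for Prg4, 1.05 (SE 0.201) for Derl3, 0.59 (SE 0.150) for Sec11c and 0.54 (SE 0.122) for Ung.

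Few of the other genes of the acute phase could be read by name. Of all 87 named genes, 48 were higher under GW4064, and the counts of the short lists below are too small to be read against that. Of 30 further positive acute phase genes, 2 had a named probe set, Lcn2 and Cp, the copper carrier ceruloplasmin, and both were higher. Cp lay above its vehicle mean by less than Saa4 did, at 1.11, 0.729 and 0.295 in the GW4064 mice, with a difference of 0.71 (SE 0.185). Of 25 genes of interleukin and NF-κB signalling, 3 were named and all 3 were higher: Il1r1, Cxcl1 and Nfkbiz, a nuclear member of the IκB family induced by interleukin-1, which stood 1.58, 1.38 and 0.649 above its vehicle mean with a difference of 1.20 (SE 0.217). None of 14 negative acute phase genes and none of 19 genes of HDL partners and serum amyloid A receptors was named. All named probe sets had to differ to be named, 0 passed the adjusted threshold, and the other genes of these lists were not analysed here.

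Glucocorticoids act together with cytokines on acute phase genes in hepatocytes, and their target genes were represented by 5 of 14, 4 of them higher. Fkbp5, a co-chaperone of the glucocorticoid receptor, was higher by 1.55 (SE 0.295) and Zbtb16, a transcription factor read here by an _x_at set, by 1.09 (SE 0.250), while Igfbp1, an insulin-like growth factor binding protein, had a difference of -1.51 (SE 0.353) and Lcn2 is also of this list. Tsc22d3, the glucocorticoid-induced leucine zipper, was higher by 0.59 (SE 0.186) but in another order of mice, its shifts being 0.372, 0.56 and 0.852, so that GW4064 mouse 3 was its highest. Of 10 direct and indirect FXR targets, 2 were named. Nr0b2, the repressor SHP that FXR induces, lay 2.81, 1.44 and 1.11 above the vehicle mean in the GW4064 mice and Cyp8b1, the sterol 12α-hydroxylase of bile acid synthesis, lay at -3.76, -2.08 and -1.42. The third mouse had 52.1% of the mean shift of the others for Nr0b2 and 48.7% for Cyp8b1, against 25.5% to 40.6% for the serum amyloid A sets. Fkbp5 (50.1%), Zbtb16 (57.3%), Igfbp1 (51.2%) and Nfkbiz (43.8%) also lay above the range of the serum amyloid A sets, Nfkbiz by the least. Tsc22d3, with GW4064 mouse 3 as its highest, lay above that range too. Lcn2, Il1r1 and Cp lay inside it and Cxcl1 below it. These shares were given without an error, the genes were named for differing on these arrays, and whether any shares differ was not tested. For Nr0b2, Cyp8b1 and Igfbp1, GW4064 mouse 2 lay nearer to mouse 3 than to mouse 1, which it did on none of the serum amyloid A sets. Adjusted p from limma lay between 0.417 and 0.528 for the other genes named here.

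Of the marker lists of other liver cell types, the neutrophil list of 12 genes had 1 named gene, Lcn2, and the lists of 10 Kupffer cell, 6 endothelial, 6 stellate, 5 cholangiocyte and 5 lymphocyte genes had 0. The part of a changed cell mixture in the serum amyloid A values was not tested. On RNA quality, the 3′ minus 5′ log2 difference of the Gapdh control sets was -0.0782 to 0.0285 in GW4064 livers and -0.0763 to 0.0097 in vehicle livers. That of the beta-actin sets was 0.97 to 1.0 in GW4064 livers and 0.916 to 1.02 in vehicle livers. For the pyruvate carboxylase sets it was 2.73 to 2.89 in GW4064 livers and 2.64 to 2.82 in vehicle livers. The ranges of the groups overlap for each control. GW4064 mouse 3 had -0.0782 for Gapdh, 0.974 for beta-actin and 2.74 for pyruvate carboxylase. Array medians were 5.87 to 5.89 and the brightest probe set 15.14 to 15.18 on all 6 arrays. Mean Pearson r with the vehicle arrays was 0.987, 0.993 and 0.995 for GW4064 mice 1, 2 and 3. The vehicle arrays had a mean r of 0.995 with each other. By this measure over all probe sets, GW4064 mouse 3 was as near to the vehicle arrays as they were to one another. Such an r over all levels does not show how single genes differed in that mouse.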

How the data were processed

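Total liver RNA of each mouse was labelled and hybridised to 1 Affymetrix array. The authors deposited a table of log2 expression levels per probe set, already normalized between arrays. No source used here names the summarisation method or its version. The study's methods name Affymetrix Power Tools and a Mouse Gene ST design. The probe set names, and the header of the deposited comparison table, belong instead to the Mouse430A_2 array, whose 3′ probe sets were taken as the ones measured. Gene names came only from that deposited comparison table, which lists 110 probe sets that the authors filtered on these arrays; its fold changes and direction calls were not used. Of the 110, 99 had 1 symbol, for 87 genes, and all 99 matched RefSeq by Entrez identifier.

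Of 22690 probe sets, 64 controls were set aside. The comparison was a limma 3.58.1 fit in R 4.3.3 (lmFit, eBayes, two-sided) on the deposited values of all 6 arrays, GW4064 minus vehicle, with Benjamini-Hochberg adjustment over 22626 probe sets, no filter and no covariate. A call was an adjusted p under 0.05. The fit was tested on simulated data. No batch is given in the labels. The labels number the mice within each group, and separate mice are the replicates; deviations from group means of same-numbered mice had r of -0.00194, 0.0533 and -0.0337 over all probe sets. Alternatives were quantile normalization, median centring, leaving out dim probe sets, a robust trended prior, array weights, the methods' t-test, a replicate block and leaving out each mouse. Windows of 300 bases came from RefSeq (GRCm38.p6) and were aligned end to end. All member probe sets are named, with up to 6 genes per list by smallest unadjusted p, and the 5 genes most alike by Pearson r for each member. The members and lists were chosen with earlier results of these data known.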

Additional observations from a re-analysis of the deposited data

How the results depend on the processing

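All 5 serum amyloid A probe sets stayed higher under GW4064 in all 65 values from alternative settings (13 for each), a direction largely set by groups that do not overlap. In 60 of these they stayed on the same side of the adjusted threshold. The other 5 are the fits without GW4064 replicate 3, where all passed. With each mouse left out in turn the log2 difference ran over 2.51 to 3.69 for Saa1 on 1419075_s_at, 2.19 to 3.14 on 1450788_at, 3.61 to 5.80 for Saa2, 0.84 to 1.22 for Saa4 on 1419318_at and 0.99 to 1.52 on 1419319_at. Over the 7 alternatives that kept all 6 mice, the members' adjusted p lay between 0.28 and 0.745. The labels number mice only within groups, and the fit with the replicate number as a block gave members' adjusted p of 0.28 to 0.329, 0 calls over the array and 147 probe sets 1.5-fold higher at an unadjusted p under 0.05, and changed no call. That count was 143 as reported, 59 with the methods' t-test and 90 to 247 with a mouse left out. The count of probe sets with no overlap was 1517 as reported, 1011 without dim probe sets, which leaves fewer to count, and 2295 to 2919 with a mouse left out, where fewer values must be separated. Adjusted calls ran from 0 to 70 with a mouse left out. Whether an upper limit of signal held down the top of Saa1 and Saa2, which lay close to the brightest probe set, was not tested. Suffixes limit what can be said of which Saa transcript was read.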
